A study of Rattus norvegicus with 24 samples.

Results

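The SLC25 family is the set of mitochondrial carriers, membrane proteins that move nucleotides, cofactors, carboxylates, amino acids and iron across the inner mitochondrial membrane. Its members were taken as every gene of the deposited table with a symbol that starts with Slc25a and a number. This gave 33 of the 10851 genes in the table, Slc25a30 among them. The RefSeq annotation of the rat (GRCr8) lists 49 protein-coding genes with such symbols, and the other 16 were not analysed here, among them the phosphate carrier gene Slc25a3.

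RNA of the medial gastrocnemius, a mainly fast-twitch hindlimb muscle, was sequenced in 24 male Wistar rats, 6 per group, with 1 library per rat. The Sed group received saline and stayed sedentary, and the Ex group received saline and trained on a treadmill. In the CC-Sed and CC-Ex rats monocrotaline was injected once, which damages the lung vessels and leads to right heart failure and cardiac cachexia (CC), the muscle wasting of advanced heart failure. CC-Sed rats stayed sedentary and CC-Ex rats trained. Monocrotaline rats without right ventricular hypertrophy had been left out by the study. The age of the rats is not given in the sources used here.

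Mitochondrial carriers share a fold of 3 related repeats that open in turn to either side of the inner membrane, and most exchange a substrate on each side. In muscle, the adenine nucleotide carrier Slc25a4 returns ATP made by oxidative phosphorylation to the contractile apparatus, and the carnitine carrier Slc25a20 brings in fatty acids for oxidation. Other members feed the matrix with cofactors, with glycine for heme, with glutathione and with iron.

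The deposited counts hold none below 10, so every gene among them was detected in every rat. The members had at least 25 counts in each library. Total counts per rat lay between 37816239 and 50350554. Values are given as CPM, the count of a gene scaled to the same library size in every rat by TMM. In bulk RNA, fewer cells of a type and less RNA per cell cannot be told apart, and a CPM is a share of the RNA in the library. The 5 skeletal muscle fibre markers were measured in all rats and summed to between 49804 and 104398 CPM. Of 7 slow-fibre markers, 4 were measured, and their sum differed widely between rats of every group. It lay between 56.8 and 2102 CPM in Sed and between 59.9 and 6439 CPM in Ex. In CC-Sed it lay between 81.0 and 7381 CPM, and in CC-Ex between 16.9 and 5285 CPM. On the first principal component of all genes, 3 monocrotaline rats lay among the saline rats, namely CC-Sed replicate 4 and CC-Ex replicates 1 and 4, and CC-Ex replicate 5 lay far from all others. Where leaving out 1 of these rats changed a call of a member that passed in any comparison, both values are given.

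The question of the main comparisons was how monocrotaline changed the muscle in sedentary rats (Sed vs. CC-Sed) and in trained rats (Ex vs. CC-Ex). The pooled CC effect is the mean of both and therefore rests on the same rats. A gene passed with an adjusted p under 0.05 in the edgeR quasi-likelihood test over all genes, and it was a DEG if its Log2FC, the log2 fold change, was also at least 1 in size.

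**Figure D1:**
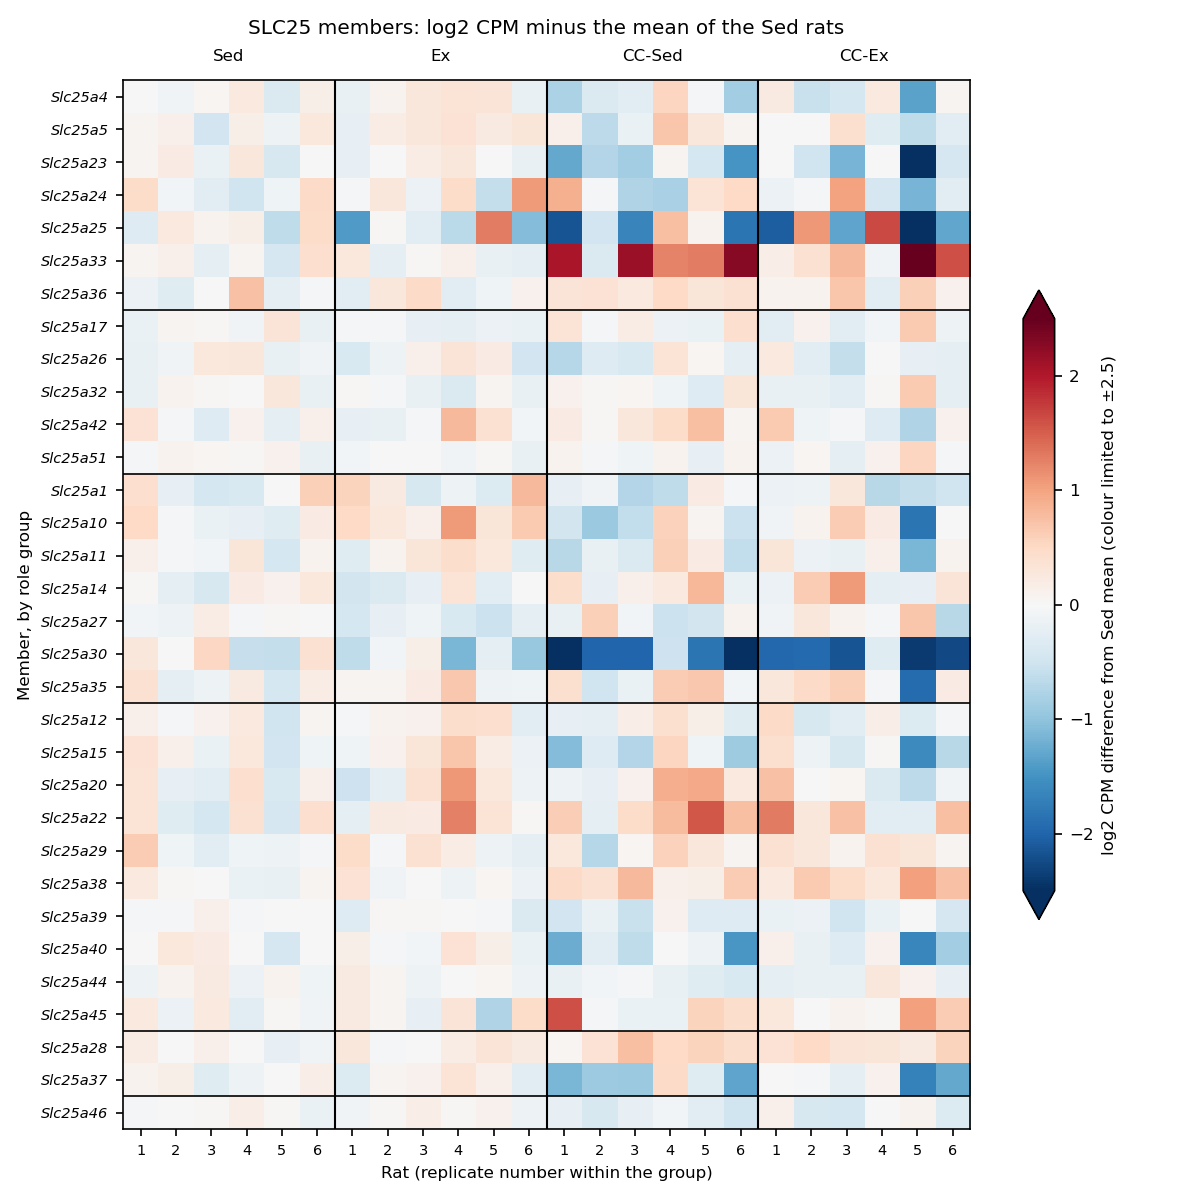
Log2 CPM of 32 of the 33 members in each of the 24 rats, as the difference from the mean of the 6 Sed rats (red higher, blue lower). Rows are grouped by role, from nucleotides and phosphate at the top through cofactors, carboxylates and amino acids to iron and Slc25a46. Slc25a30 is dark blue in 5 of 6 rats of each CC group, with replicate 4 the exception in both, and Slc25a33 is red in 5 of 6 CC-Sed rats.

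Few carriers changed, and they did so in both directions. In Sed vs. CC-Sed, 2 of the 33 members passed (6.06%), against 6.46% of all genes. Slc25a28, an iron carrier, was higher in CC-Sed, as were 4.30% of all genes, and Slc25a30, a carrier of anions, was lower, as were 2.16% of all genes. In Ex vs. CC-Ex, 1 member passed (3.03%), against 0.995% of all genes, and this was the glycine carrier gene Slc25a38, which was higher in CC-Ex, as were 0.875% of all genes. For the pooled CC effect, 7 members passed (21.2%), against 27.8% of all genes. Slc25a28, Slc25a33 and Slc25a38 were higher in the monocrotaline rats (9.09% of the members, 17.2% of all genes), and Slc25a23, Slc25a30, Slc25a40 and Slc25a46 were lower (12.1% of the members, 10.6% of all genes). By the DEG criterion, Slc25a30 was called in Sed vs. CC-Sed (1.87% of all genes), no member in Ex vs. CC-Ex (0.525% of all genes), and Slc25a30 and Slc25a33 in the pooled effect (2.88% of all genes). The shares of the passing members in Sed vs. CC-Sed and in the pooled effect were near or below those of all genes, and the single call in Ex vs. CC-Ex sets no share.

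The counts moved with single rats, and so did those of all genes. Without CC-Sed replicate 4, 7 members passed in Sed vs. CC-Sed, against 15.9% of all genes, and 11 in the pooled effect, against 35.3% of all genes. In Ex vs. CC-Ex, 3 passed without CC-Ex replicate 4, against 7.81% of all genes, and 2 without CC-Ex replicate 1, against 4.60% of all genes. None passed there without any single Ex rat or without CC-Ex replicate 2, 3, 5 or 6. In those fits between 0.0184% and 0.452% of all genes passed.

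Across the family the direction was mixed. The median Log2FC of the members was -0.01 in Sed vs. CC-Sed, where that of all genes was 0.02. It was -0.12 in Ex vs. CC-Ex, where that of all genes was 0.01. In Sed vs. CC-Sed, 15 members had a Log2FC above 0 and 18 below. In no comparison did the CPM ranges of 2 groups stay apart for any member, while they did for 3.61% of all genes in Sed vs. CC-Sed, 1.08% in Ex vs. CC-Ex, 0.138% in Sed vs. Ex and 0.00922% in CC-Sed vs. CC-Ex. All saline rats stayed apart from all monocrotaline rats in 0.138% of all genes.

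**Figure D2:**
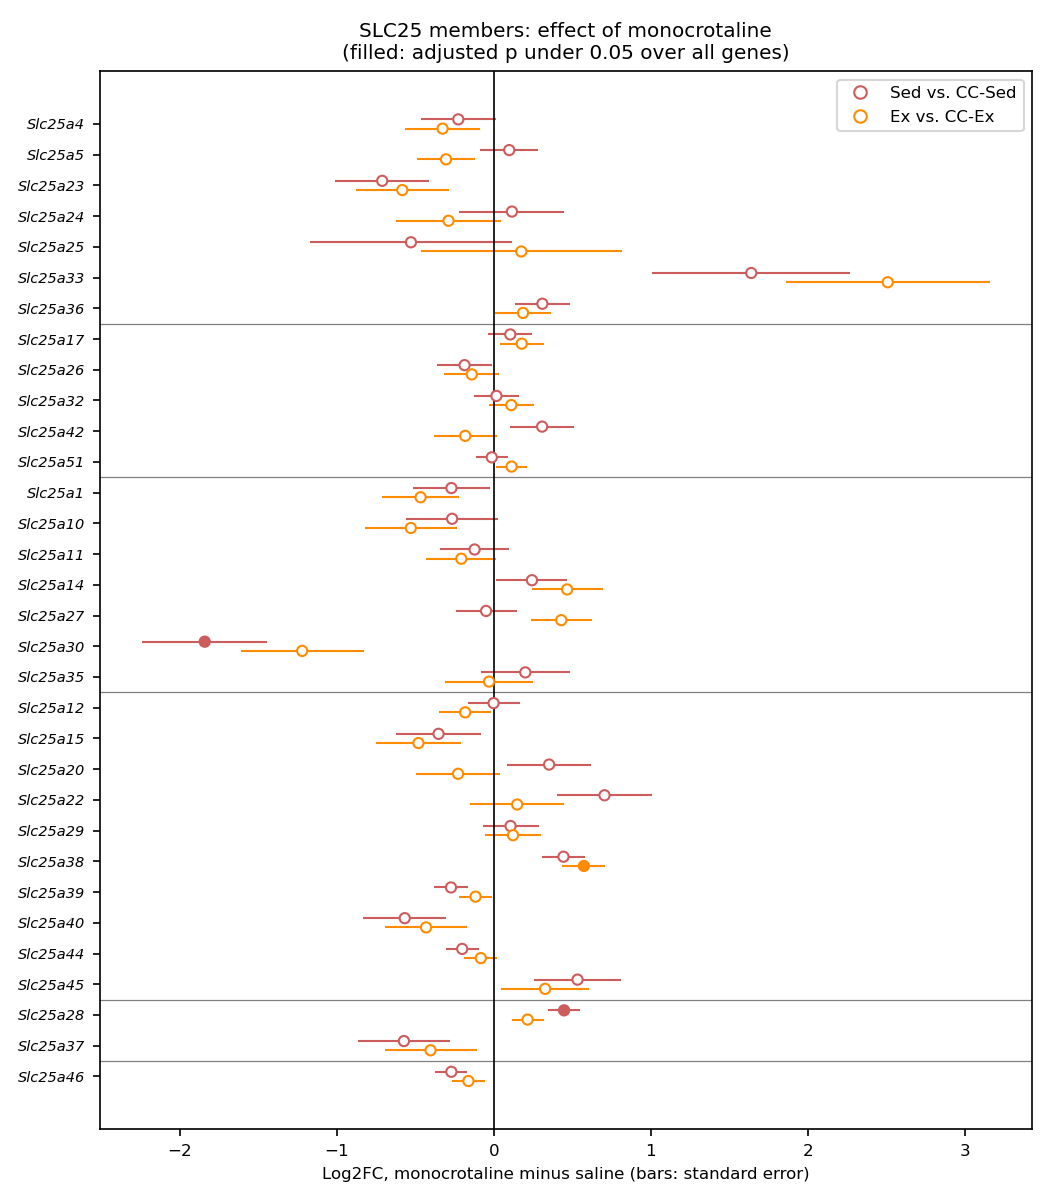
Log2FC of 32 of the 33 members in Sed vs. CC-Sed (red) and Ex vs. CC-Ex (orange), monocrotaline minus saline, with bars of 1 standard error and members grouped by role in the same order as in the heat map. Filled points passed over all 10851 genes: Slc25a30 at -1.84 and Slc25a28 at 0.45 in the sedentary rats, and Slc25a38 at 0.57 in the trained rats.

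Slc25a30 encodes kidney mitochondrial carrier protein 1, a relative of the uncoupling proteins that carries sulfur compounds and other anions. It had the lowest Log2FC of the family in both comparisons. In Sed rats, Slc25a30 lay at 18.5 CPM in the lowest, 31.0 in the median and 40.0 in the highest rat. In Ex rats, Slc25a30 lay between 12.7 and 31.2 CPM with a median of 21.0. In CC-Sed, Slc25a30 was at 3.56 CPM in the lowest, 7.03 in the median and 19.5 in the highest rat. In CC-Ex, the same values of Slc25a30 were 5.30, 6.69 and 22.8 CPM. In each CC group, 5 of 6 rats lay below every saline rat, and replicate 4 of both groups lay inside the saline range.

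The Log2FC of Slc25a30 was -1.84, with a standard error (SE) of 0.399, in the sedentary rats (edgeR adjusted p = 0.0138). For the trained rats the Log2FC was -1.22 (SE 0.393) and did not pass (edgeR adjusted p = 0.0927). Pooled over both, it was -1.53 (SE 0.280, edgeR adjusted p = 0.00101), and it passed with each of the 24 rats left out. Without CC-Ex replicate 4, the Log2FC of Slc25a30 in Ex vs. CC-Ex was -1.74 (edgeR adjusted p = 0.00814). Without CC-Sed replicate 4, the Log2FC of Slc25a30 in Sed vs. CC-Sed was -2.30, with a pass for each rat left out. The sedentary and trained effects on Slc25a30 differed by 0.62 (SE 0.549), with a 95% interval from -0.52 to 1.77. A larger fall in the sedentary rats was therefore not shown.

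Slc25a30 also lay lower in Ex than in Sed rats, with overlapping ranges and a Log2FC of -0.47 (95% interval -1.27 to 0.34) that did not pass in edgeR. Of the 5 fibroblast markers, all measured, Col1a1, Col1a2 and Col3a1 passed with lower levels in the pooled CC effect (10.6% of all genes). The 5 markers summed to between 389 and 2793 CPM in Sed, 818 and 4862 CPM in Ex, 470 and 1469 CPM in CC-Sed and 150 and 1542 CPM in CC-Ex. Their median Log2FC was -0.97 in Sed vs. CC-Sed and -1.80 in Ex vs. CC-Ex. None passed in edgeR in either, and 0 and 3 of the 5 had an unadjusted p under 0.05, against 28.4% and 22.6% of all genes. With the mean of these markers as a covariate, the pooled Log2FC of Slc25a30 was -1.67 (edgeR adjusted p = 0.00579). The same covariate lowered the pooled calls to 1326 genes (12.2% of all) and 6 members.

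Among the other carriers of carboxylates and related anions, none passed in any comparison. These are the citrate carrier Slc25a1, the dicarboxylate carrier Slc25a10, the oxoglutarate and malate carrier Slc25a11, the uncoupling-protein relatives Slc25a14 and Slc25a27, and Slc25a35. Slc25a14 and Slc25a27, which with Slc25a30 form the group of uncoupling-protein relatives in the table, had pooled Log2FC values of 0.36 and 0.19. Both were opposite in sign to Slc25a30 and did not pass (edgeR adjusted p = 0.0948 and 0.296).

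**Figure D3:**
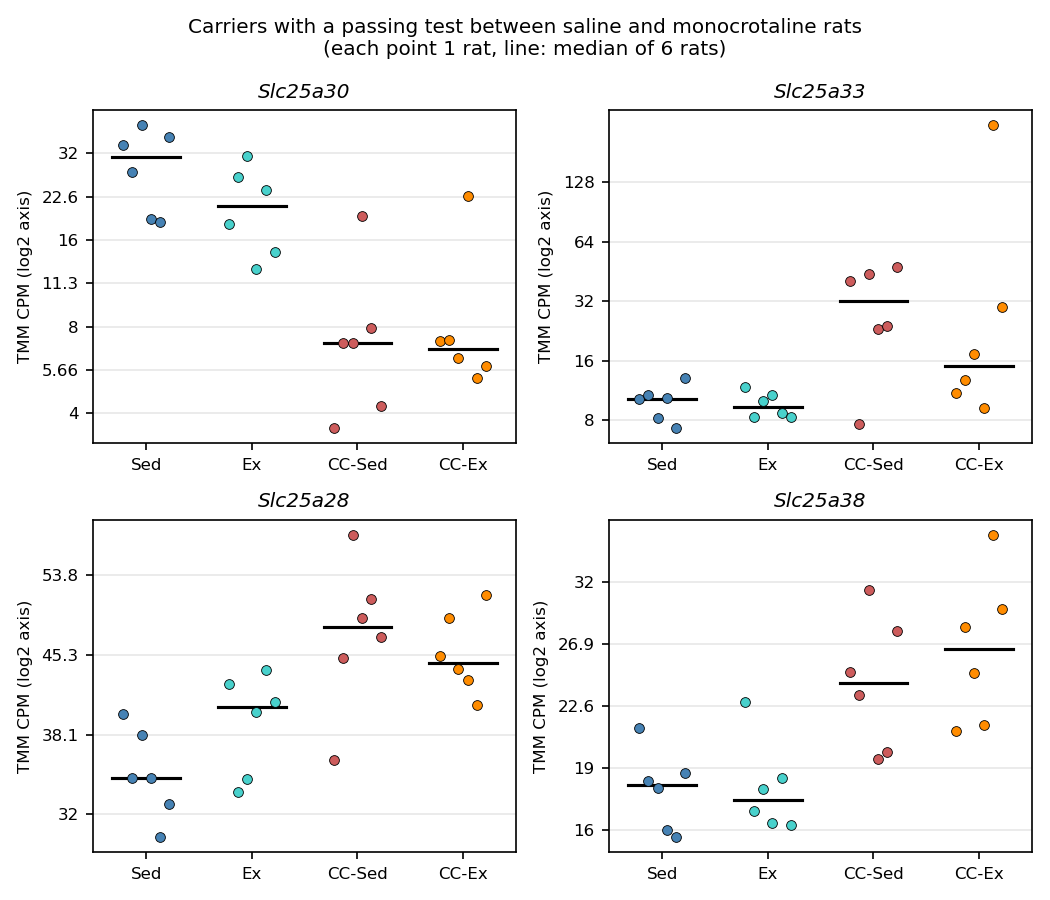
TMM CPM of Slc25a30, Slc25a33, Slc25a28 and Slc25a38 in each rat (points) by group on a log2 axis, with a line at the median of 6 rats. Slc25a30 shows 1 high rat in each CC group, at 19.5 and 22.8 CPM, and Slc25a33 shows 1 CC-Ex rat at 248 CPM, while Slc25a28 and Slc25a38 move by smaller steps with less spread.

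Of the 3 genes that passed with higher levels in the monocrotaline rats, the promoters were available from RefSeq and are shown because these are the members with a higher level in the pooled CC effect. Each is the stretch of 250 bases before the start of the gene on its own strand in GRCr8, written 5′ to 3′, with an E-box (CACGTG) in capitals where the stretch holds it. Slc25a33 is at chr5:165502974-165503223 (minus strand), Slc25a28 at chr1:252491343-252491592 (minus strand) and Slc25a38 at chr8:128712930-128713179 (plus strand).
Slc25a33: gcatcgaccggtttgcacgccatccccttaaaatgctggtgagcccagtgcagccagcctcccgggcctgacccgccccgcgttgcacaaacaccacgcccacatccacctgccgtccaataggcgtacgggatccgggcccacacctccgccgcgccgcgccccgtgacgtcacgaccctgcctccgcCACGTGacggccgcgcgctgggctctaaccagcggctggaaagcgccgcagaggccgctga
Slc25a28: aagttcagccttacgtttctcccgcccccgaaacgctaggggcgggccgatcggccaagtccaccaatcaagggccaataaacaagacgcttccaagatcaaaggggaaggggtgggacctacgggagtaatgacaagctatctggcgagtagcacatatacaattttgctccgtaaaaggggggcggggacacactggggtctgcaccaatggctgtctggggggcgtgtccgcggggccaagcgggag
Slc25a38: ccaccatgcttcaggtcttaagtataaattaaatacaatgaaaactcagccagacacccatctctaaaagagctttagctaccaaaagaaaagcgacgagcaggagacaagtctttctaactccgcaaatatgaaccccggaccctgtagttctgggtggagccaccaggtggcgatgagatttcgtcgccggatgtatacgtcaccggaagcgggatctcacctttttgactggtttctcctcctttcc

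The 3 promoters differed in base composition. The stretch of Slc25a33 had 70.0% G and C and 30 CpG sites, that of Slc25a28 had 58.8% and 16, and that of Slc25a38 had 47.6% and 11. The E-box of Slc25a33 starts 61 bases before the start of the gene. Of the 33 members, 26 had a promoter in the RefSeq table, and 2 of these (7.69%), Slc25a33 and Slc25a51, held CACGTG. The same letters were in 8.52% of the promoters of all genes in the count table. The E-box reads the same on both strands. The letters GTAAACA (a FoxO motif) and AAGGTCA (an ERR motif) were in none of the 26 on either strand, and in 2.12% and 2.34% of the promoters of the table's genes.

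Slc25a33 carries pyrimidine nucleotides into the matrix, where they serve the making of mitochondrial DNA and RNA. RefSeq lists 1 pseudogene named for Slc25a33, which can share its reads. Slc25a33 lay between 7.30 and 13.1 CPM in Sed and between 8.25 and 11.7 CPM in Ex, with medians of 10.3 and 9.34. In CC-Sed, the lowest rat was at 7.64, the median at 32.1 and the highest rat at 47.6 CPM for Slc25a33. In CC-Ex, Slc25a33 was at 9.16 CPM in the lowest, 15.1 in the median and 248 in the highest rat. Of the CC-Sed rats, 5 of 6 lay above all saline rats and replicate 2 among them. Of the CC-Ex rats, 3 lay above all saline rats, with replicate 5 far above the rest.

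For the pooled CC effect, the Log2FC of Slc25a33 was 2.08 (SE 0.452, edgeR adjusted p = 0.00333), and Slc25a33 was a DEG there. Without CC-Ex replicate 5, the pooled Log2FC of Slc25a33 was 1.17, and it passed with each of the 24 rats left out. The Log2FC of Slc25a33 was 1.64 in the sedentary rats (edgeR adjusted p = 0.0997) and 2.51 in the trained rats (edgeR adjusted p = 0.0558), and neither passed. Without CC-Ex replicate 5, the Log2FC of Slc25a33 in Ex vs. CC-Ex was 0.73. It passed there without CC-Ex replicate 1, at 2.72 (edgeR adjusted p = 0.0240), and without CC-Ex replicate 4, at 2.73 (edgeR adjusted p = 0.0153). With the mean of the fibroblast markers as a covariate, 12.2% of all genes passed in the pooled CC effect, against 27.8% without it. In that fit the pooled Log2FC of Slc25a33 was 1.08 and no longer passed (edgeR adjusted p = 0.162). Its closest relative Slc25a36, the other pyrimidine nucleotide carrier, had a pooled Log2FC of 0.25 (edgeR adjusted p = 0.134).

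Slc25a28 encodes mitoferrin-2, which brings iron into the mitochondria of non-erythroid cells. In Sed rats, Slc25a28 lay between 30.4 and 39.8 CPM with a median of 34.6. In Ex rats, Slc25a28 lay between 33.6 and 43.8 CPM with a median of 40.4. In CC-Sed, Slc25a28 was at 36.0 CPM in the lowest, 48.1 in the median and 58.7 in the highest rat. In CC-Ex, Slc25a28 was at 40.6 CPM in the lowest, 44.5 in the median and 51.6 in the highest rat. All 12 monocrotaline rats lay above the median of their own saline group, and the ranges overlapped in both comparisons.

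The Log2FC of Slc25a28 was 0.45 (SE 0.102) in the sedentary rats and passed (edgeR adjusted p = 0.0162). In Ex vs. CC-Ex the Log2FC of Slc25a28 was 0.22 (edgeR adjusted p = 0.215). The pooled Log2FC of Slc25a28 was 0.33 (edgeR adjusted p = 0.00338) and passed with each rat left out. With upper-quartile scaling in place of TMM, Slc25a28 did not pass in Sed vs. CC-Sed (edgeR adjusted p = 0.0548). The sedentary and trained effects on Slc25a28 differed by -0.23 (95% interval -0.53 to 0.07).

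The other mitoferrin, Slc25a37, serves iron uptake in cells that make much heme and moved the other way. Slc25a37 had medians of 2.76 CPM (Sed), 2.82 CPM (Ex), 1.39 CPM (CC-Sed) and 2.39 CPM (CC-Ex). In CC-Sed, 5 of 6 rats lay below all Sed rats, and replicate 4 was above it at 3.71 CPM. Its pooled Log2FC was -0.49 (95% interval -0.92 to -0.05) and did not pass (edgeR adjusted p = 0.0787). Without CC-Sed replicate 4, Slc25a37 passed in Sed vs. CC-Sed and in the pooled effect (15.9% and 35.3% of all genes). Without CC-Ex replicate 4, Slc25a37 passed in the pooled effect (33.9% of all genes). With any other rat left out it did not pass.

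Slc25a38 carries glycine into the matrix for the first step of heme synthesis. RefSeq lists 1 pseudogene named for Slc25a38, which can share its reads. Slc25a38 lay between 15.7 and 21.3 CPM in Sed and between 16.2 and 22.9 CPM in Ex, with medians of 18.2 and 17.4. In CC-Sed, Slc25a38 was at 19.5 CPM in the lowest, 24.1 in the median and 31.3 in the highest rat. In CC-Ex, the lowest rat was at 21.1, the median at 26.5 and the highest rat at 36.5 CPM of Slc25a38. Every monocrotaline rat lay above the median of its saline group, and Ex overlapped CC-Ex through replicate 1 of Ex alone.

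For the trained rats the Log2FC of Slc25a38 was 0.57 (SE 0.137, edgeR adjusted p = 0.0434), and for the sedentary rats it was 0.44 (SE 0.137, edgeR adjusted p = 0.0531). The call in Ex vs. CC-Ex held in only 2 of the 12 fits that leave out a rat of that comparison. In the fits where it failed, between 0.0184% and 0.452% of all genes passed, against 0.995% with all rats. Without CC-Ex replicate 5 the Log2FC of Slc25a38 was 0.45 (edgeR adjusted p = 0.121). Without CC-Sed replicate 4, Slc25a38 passed in Sed vs. CC-Sed at 0.50 (edgeR adjusted p = 0.0230). The pooled Log2FC of Slc25a38 was 0.51 (SE 0.0971, edgeR adjusted p = 0.00135) and passed with each of the 24 rats left out. The difference between the sedentary and trained effects on Slc25a38 was 0.13 (95% interval -0.27 to 0.53).

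Red blood cell genes were compared as well, and whether they followed Slc25a38 from rat to rat was not tested. Of 4 erythroid markers, 3 were measured, and Hbb and Hba-a1 passed with higher levels in the pooled CC effect (17.2% of all genes). Of these 3, 0 had an unadjusted p under 0.05 in Sed vs. CC-Sed and 3 in Ex vs. CC-Ex. The shares of all genes were 28.4% and 22.6%. The 3 markers summed to between 49.9 and 130 CPM in Sed, 92.2 and 210 CPM in Ex, 50.5 and 409 CPM in CC-Sed and 33.8 and 960 CPM in CC-Ex. The medians of this sum were 115, 151, 119 and 318 CPM in the same order. Alas2, which takes the glycine into heme in red cell precursors, was not in the table. With the mean of the 3 markers as a covariate, the pooled Log2FC of Slc25a38 was 0.55 (edgeR adjusted p = 0.000150) and that of Slc25a28 was 0.30 (edgeR adjusted p = 0.00196). The same covariate raised the pooled calls to 5224 genes (48.1% of all) and 15 members.

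Among the carriers of nucleotides and phosphate, Slc25a23 fell. Slc25a23 encodes a calcium-regulated carrier that exchanges ATP-Mg for phosphate. Slc25a23 lay between 28.5 and 45.6 CPM in Sed with a median of 38.6, and between 32.4 and 45.9 CPM in Ex with a median of 37.6. In CC-Sed, Slc25a23 was at 13.4 CPM in the lowest, 21.6 in the median and 39.6 in the highest rat. In CC-Ex, Slc25a23 was at 6.17 CPM in the lowest, 27.5 in the median and 37.8 in the highest rat. In CC-Sed, 5 of 6 rats lay below all Sed rats and replicate 4 did not.

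For Slc25a23, the pooled Log2FC was -0.65 (SE 0.210, edgeR adjusted p = 0.0267), with a pass in 22 of 24 fits that leave out a rat. The Log2FC of Slc25a23 was -0.71 in Sed vs. CC-Sed and -0.58 in Ex vs. CC-Ex, neither of which passed with all rats (edgeR adjusted p = 0.127 and 0.240). Without CC-Sed replicate 4, Slc25a23 passed in Sed vs. CC-Sed at -0.93 (edgeR adjusted p = 0.0388). With the mean of the fibroblast markers as a covariate, the pooled Log2FC of Slc25a23 was -0.60 and did not pass (edgeR adjusted p = 0.0948). In that fit 12.2% of all genes passed, against 27.8% in the main fit. Slc25a23 also did not pass with the library number, the number that opens each library name, as a covariate (23.2% of all genes did).

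Slc25a25 and Slc25a24 are close relatives of Slc25a23 with the same exchange. Slc25a25 was the member with the widest spread between rats. Slc25a25 lay between 43.0 and 92.7 CPM in Sed and between 25.1 and 163 CPM in Ex. In CC-Sed, Slc25a25 ranged from 14.9 to 113 CPM, and in CC-Ex from 10.4 to 211 CPM. The highest rat in both CC groups was replicate 4, which was also the highest for Slc25a30. Its pooled Log2FC was -0.18 with a 95% interval from -1.12 to 0.77. Slc25a24 had a pooled Log2FC of -0.09 (edgeR adjusted p = 0.799).

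The adenine nucleotide carriers did not pass. Slc25a4 held between 51.3% and 75.1% of the counts of the family in each rat, so the share of the family in all counts follows it. That share had medians of 0.438% (Sed), 0.469% (Ex), 0.357% (CC-Sed) and 0.405% (CC-Ex). Slc25a4 itself had medians of 3298, 3670, 2588 and 2890 CPM in the same order. Its lowest value was in CC-Ex replicate 5 at 1276 CPM and its highest in CC-Sed replicate 4 at 4706 CPM. For Slc25a4, the pooled Log2FC was -0.28 (95% interval -0.63 to 0.08, edgeR adjusted p = 0.217). Slc25a5, a widely expressed isoform, had a pooled Log2FC of -0.10. Its values are uncertain because RefSeq lists 9 pseudogenes named for it that can share reads. For Slc25a4, Slc25a15 and Slc25a36, RefSeq lists 1 such pseudogene each.

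**Figure D4:**
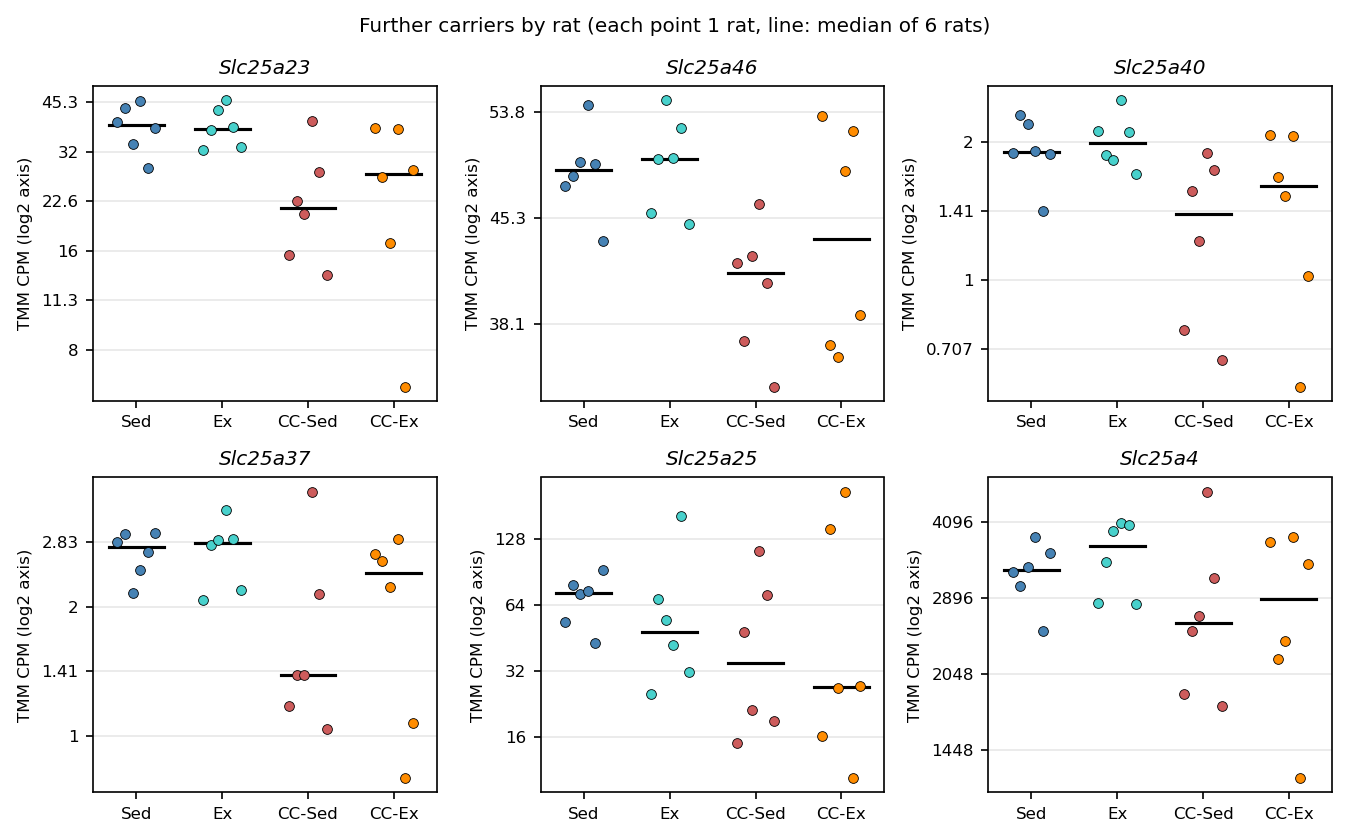
TMM CPM of Slc25a23, Slc25a46, Slc25a40, Slc25a37, Slc25a25 and Slc25a4 in each rat (points) by group on a log2 axis, with a line at the median of 6 rats. The CC groups reach lower than the saline groups in every panel, down to 6.17 CPM for Slc25a23, and CC-Sed replicate 4 is the highest CC-Sed rat in all 6 panels.

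Among the carriers of amino acids, carnitine and glutathione, Slc25a38 was the only member that passed with a higher level and Slc25a40 the only member that passed with a lower one. Slc25a39 and Slc25a40 take glutathione, the main antioxidant of the matrix, into mitochondria. Slc25a40 had medians of 1.90 CPM (Sed), 1.99 CPM (Ex), 1.39 CPM (CC-Sed) and 1.60 CPM (CC-Ex), with lowest rats of 0.671 CPM in CC-Sed and 0.586 CPM in CC-Ex. All 6 CC-Sed rats lay below the Sed median, and 4 of 6 CC-Ex rats lay below the Ex median. The pooled Log2FC of Slc25a40 was -0.50 (SE 0.185, edgeR adjusted p = 0.0474), close to the threshold, and it passed in only 6 of the 24 fits that leave out a rat. Without CC-Ex replicate 5, Slc25a40 was at -0.43 (edgeR adjusted p = 0.0590). With the fibroblast markers as a covariate, where 12.2% of all genes passed, the value for Slc25a40 was -0.40 (edgeR adjusted p = 0.189). Slc25a39 had a pooled Log2FC of -0.19 (SE 0.0756, edgeR adjusted p = 0.0567). RefSeq lists 8 pseudogenes named for Slc25a39, so that its counts are uncertain.

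The other members of this group did not pass. Slc25a22, a glutamate carrier, had the largest of their Log2FC values in Sed vs. CC-Sed at 0.71 (edgeR adjusted p = 0.134), and a Log2FC of 0.15 in Ex vs. CC-Ex. Slc25a12, the aspartate and glutamate carrier of the malate-aspartate shuttle, had a Log2FC of -0.0017 in Sed vs. CC-Sed with a 95% interval from -0.35 to 0.34. Slc25a15, the ornithine carrier, had a pooled Log2FC of -0.42 (edgeR adjusted p = 0.104). Slc25a44, a carrier of branched-chain amino acids, had a pooled Log2FC of -0.14 (95% interval -0.30 to 0.01, edgeR adjusted p = 0.142).

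Slc25a46 differs from the other members in that it sits in the outer mitochondrial membrane, where it takes part in fusion and fission. Slc25a46 lay between 43.6 and 54.5 CPM in Sed and between 44.8 and 54.9 CPM in Ex. In CC-Sed, Slc25a46 was at 34.4 CPM in the lowest, 41.4 in the median and 46.3 in the highest rat. In CC-Ex, Slc25a46 was at 36.1 CPM in the lowest, 43.7 in the median and 53.4 in the highest rat. All CC-Sed rats lay below the Sed median, while the CC-Ex rats fell into 3 rats below the Ex range and 3 inside it. The pooled Log2FC of Slc25a46 was -0.22 (SE 0.0727, edgeR adjusted p = 0.0311), and it passed in 19 of 24 fits that leave out a rat. With the library number as a covariate, Slc25a46 did not pass in the pooled effect (edgeR adjusted p = 0.0546), where 23.2% of all genes passed. In Sed vs. CC-Sed, Slc25a46 passed without CC-Sed replicate 4, at -0.31 (edgeR adjusted p = 0.0493), and not with all rats.

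None of 5 cofactor carriers passed in any comparison. They carry coenzyme A and its relatives (Slc25a42, and Slc25a17 in peroxisomes), S-adenosylmethionine (Slc25a26), folate (Slc25a32) and NAD (Slc25a51). Their Log2FC lay between -0.19 and 0.31 in Sed vs. CC-Sed and between -0.18 and 0.18 in Ex vs. CC-Ex. Slc25a51 had medians of 78.0, 74.9, 77.5 and 76.8 CPM in the order Sed, Ex, CC-Sed, CC-Ex, and its pooled Log2FC was 0.05 with a 95% interval from -0.10 to 0.20.

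Training changed no carrier detectably. In Sed vs. Ex, CC-Sed vs. CC-Ex and the interaction, which asks whether the effect of monocrotaline differed with training, 0 of 33 members passed in edgeR. None had an unadjusted p under 0.05 in these contrasts, and none passed with DESeq2 or limma-voom. Of all genes, 0% passed in each, and 1.09%, 2.16% and 1.42% had an unadjusted p under 0.05. The Log2FC of the members lay between -0.47 and 0.50 in Sed vs. Ex and between -0.38 and 0.81 in CC-Sed vs. CC-Ex.

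The members with the smallest p in Sed vs. Ex were Slc25a10, Slc25a27 and Slc25a28. The dicarboxylate carrier Slc25a10 lay between 2.11 and 3.73 CPM in Sed with a median of 2.46, and between 2.88 and 5.56 CPM in Ex with a median of 3.48. Its Log2FC was 0.50 (95% interval -0.11 to 1.11). In the monocrotaline rats Slc25a10 had medians of 1.84 CPM in CC-Sed and 2.71 CPM in CC-Ex. Slc25a27 lay between 1.89 and 2.36 CPM in Sed and between 1.40 and 1.91 CPM in Ex, with ranges that touched at 1 rat of each group. In CC-Sed and CC-Ex, Slc25a27 had medians of 1.88 and 2.09 CPM. The interaction of Slc25a27 was 0.48 (95% interval -0.09 to 1.05).

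In CC-Sed vs. CC-Ex, the smallest p belonged to Slc25a42, Slc25a20 and Slc25a33. Slc25a42, a coenzyme A carrier, lay between 45.8 and 76.6 CPM in CC-Sed with a median of 53.7, and between 26.6 and 70.7 CPM in CC-Ex with a median of 42.8. Its Log2FC was -0.34 (95% interval -0.77 to 0.08). Slc25a20 lay between 71.4 and 158 CPM in CC-Sed and between 52.7 and 136 CPM in CC-Ex, and its Log2FC was -0.38 (95% interval -0.93 to 0.18). The Log2FC of Slc25a33 was 0.81, and it was -0.94 without CC-Ex replicate 5.

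The carriers differed more between rats within the CC groups than within the saline groups, as did most genes. The spread of a member was taken as the SD of its log2 CPM over the 6 rats of a group. The median SD over the members was 0.254 (Sed), 0.277 (Ex), 0.435 (CC-Sed) and 0.461 (CC-Ex). For all genes the median SD was 0.200, 0.195, 0.318 and 0.372 in the same order. The SD was larger in CC-Sed than in Sed for 30 of 33 members (90.9%), against 78.7% of all genes. It was larger in CC-Ex than in Ex for 27 of 33 members (81.8%), against 84.9% of all genes. CC-Ex replicate 5 was the highest or the lowest rat of its group for 24 of the 33 members (72.7%) and for 72.2% of all genes.

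**Figure D5:**
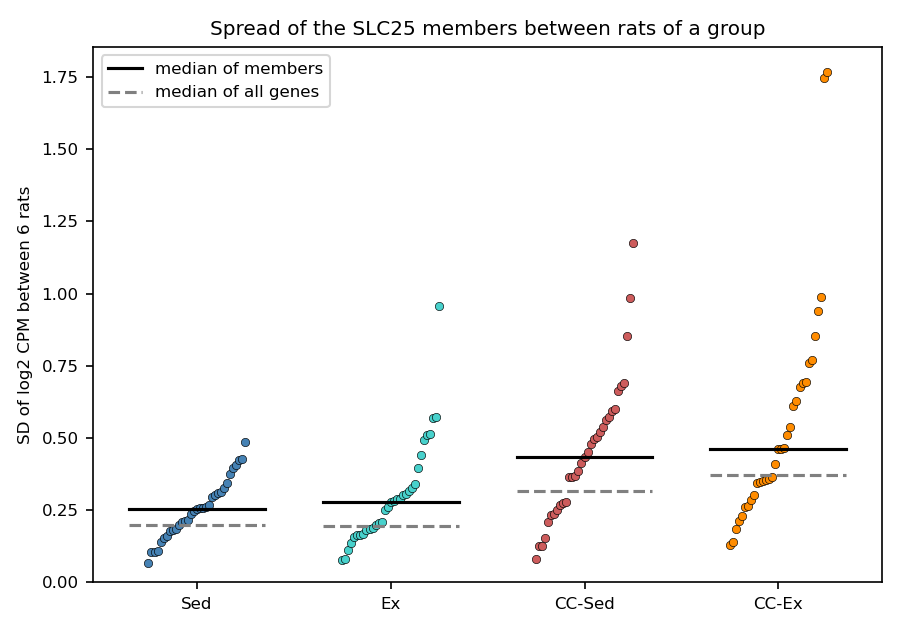
SD of log2 CPM between the 6 rats of each group for the 33 members (points, sorted within a group), with the median of the members (solid line) and of all genes (dashed line). The member median rises from 0.254 in Sed to 0.461 in CC-Ex and lies above that of all genes in each group, and Slc25a33 and Slc25a25 are the 2 points above 1.5 in CC-Ex.

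Outside the symbols of the rule, 4 further SLC25 proteins were measured under other names (Ucp2, Ucp3, Mtch1 and Mtch2). Ucp3, the muscle uncoupling protein, passed with a higher level in the pooled CC effect, as did 17.2% of all genes. Its Log2FC there was 1.40 with an SE of 0.486 (edgeR adjusted p = 0.0359). Its mean level was 161 CPM (Sed), 83.7 CPM (Ex), 323 CPM (CC-Sed) and 291 CPM (CC-Ex). The other 3 did not pass. Of the 4, 0 had an unadjusted p under 0.05 in Sed vs. CC-Sed and 1 in Ex vs. CC-Ex. The shares of all genes were 28.4% and 22.6%. The change of Ucp3 was opposite in sign to that of Slc25a30, its relative among the members.

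Other routes into the mitochondrion were compared by a list of 23 measured genes outside the family. In Sed vs. CC-Sed, 2 passed with higher levels (4.30% of all genes did) and 1 with a lower level (2.16% of all genes). The higher genes were Cpt1b, the muscle enzyme that commits fatty acids to mitochondrial entry, with a Log2FC of 0.89 (edgeR adjusted p = 0.0147), and Sfxn4, a sideroflexin, with 0.51 (edgeR adjusted p = 0.0478). The lower gene was Sfxn5, another sideroflexin, with a Log2FC of -1.29 (edgeR adjusted p = 0.0164). In the pooled CC effect these 3 passed again, with Log2FC values of 0.64, 0.43 and -0.99, and Micu2, a regulator of the calcium uniporter, passed with -0.23. These were 2 higher and 2 lower genes, where 17.2% and 10.6% of all genes passed in these directions. None passed in Ex vs. CC-Ex in edgeR, where 3 of the 23 had an unadjusted p under 0.05, against 22.6% of all genes. Slc25a20, which follows Cpt1b on the same route, had a Log2FC of 0.35 in Sed vs. CC-Sed and did not pass (edgeR adjusted p = 0.390).

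Of 22 measured enzymes that make or use the substrates of the carriers, 2 passed with higher levels in Sed vs. CC-Sed, as did 4.30% of all genes. They were Bckdha, a subunit of the branched-chain keto acid dehydrogenase, with a Log2FC of 0.85 (edgeR adjusted p = 0.00899), and Nadk2, the mitochondrial NAD kinase, with 0.76 (edgeR adjusted p = 0.0265). In the pooled CC effect, 5 of the 22 passed with higher levels, as did 17.2% of all genes. Bcat2 (0.51), Bckdha (0.74), Oat (0.53), Nadk2 (0.68) and Coasy (0.56) had higher levels by these Log2FC values. The carriers next to these enzymes did not pass. Slc25a44 beside Bcat2 and Bckdha, Slc25a15 beside Oat, Slc25a51 beside Nadk2 and Slc25a42 beside Coasy had pooled Log2FC values of -0.14, -0.42, 0.05 and 0.06.

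Of 14 genes taken as a measure of mitochondrial abundance, such as Cs and subunits of the respiratory chain, all were measured and none passed in any comparison in edgeR. Of these, 1 had an unadjusted p under 0.05 in the pooled CC effect, against 42.4% of all genes. A pooled Log2FC above 0 was found in 2 of 14, against 51.9% of all genes. The median pooled Log2FC of the 14 genes was -0.11, beside -0.09 for the 33 carriers and 0.01 for all genes.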

How the data were processed

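Gene expression was measured by stranded poly-A RNA-seq in 24 rats (6 per group), with groups taken from GEO's labels. After trimming with Trim Galore, the authors quantified the reads with Salmon on the mRatBN7.2 transcriptome and summed them to genes. The deposited values are thus estimated counts, written as whole numbers with none below 10, and they were not filtered further. The authors used DESeq2 1.44.0 for their own test.

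Here edgeR 4.0.16 in R 4.3.3 fitted a quasi-likelihood model of the 4 groups to 10851 genes after TMM scaling, with Benjamini-Hochberg adjustment over all genes. The standard error was the size of the Log2FC divided by the square root of F. Log2 CPM used a prior count of 2. Each rat was 1 library, so p-values reflect the spread between animals. The scripts were tested on simulated data. DESeq2 1.42.0, limma-voom (limma 3.58.1) with quality weights, upper-quartile scaling, a minimum mean of 1 CPM, a replicate block, the library number, a slow-fibre score and each rat left out were alternatives. The erythroid and fibroblast covariates were added after seeing the data.

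The members, the gene lists and the alternatives were chosen with earlier results of these data known. Values in every group were given for Slc25a30, for each member that passed, and for the 3 members of smallest p where none passed; other members and list genes were named by role or by a passed test. Promoters came from RefSeq (GRCr8), whose build differs from that of the counts. Slc25a30 had no entry. A few genes, 1 of them a member, are not reported by name here; the member stays in the counts over all 33, and the lists and row plots leave these genes out.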

Additional observations from a re-analysis of the deposited data

Results flagged for a closer look

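In 13 members, each of the 4 groups was tested for a single rat that stands apart from the other 5 by Dixon's gap ratio. The 13 were the members followed through the alternatives, with Slc25a4 and Slc25a25 added. Slc25a25 had the widest spread of all members. Of 52 groups, 5 were flagged. About 2.6 flags would be expected if the groups were independent, but the same 24 rats recur in every member. These numbers are therefore not compared. Slc25a30 stood apart in CC-Sed replicate 4, at 19.5 CPM with the nearest rat at 7.90, and in CC-Ex replicate 4, at 22.8 CPM with the nearest rat at 7.22. Slc25a33 stood apart in CC-Ex replicate 5, at 248 CPM with the nearest rat at 29.9. Slc25a25 stood apart in Ex replicate 5, at 163 CPM with the nearest rat at 68.1, and Slc25a38 in Ex replicate 1, at 22.9 CPM with the nearest rat at 18.5. No member's effect of monocrotaline differed between sedentary and trained rats in the test of the interaction.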

How the results depend on the processing

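The main count of passing members was 2 in Sed vs. CC-Sed, 1 in Ex vs. CC-Ex and 7 in the pooled CC effect. With the study's DEG criterion these were 1, 0 and 2. In Sed vs. CC-Sed, 4 passed with DESeq2 (12.3% of all genes did), 4 with the slow-fibre score (12.7%), 7 with the erythroid score (25.3%) and 9 with limma-voom (22.8%). Upper-quartile scaling gave 0 higher and 3 lower (Slc25a30, Slc25a39 and Slc25a46) against 1 and 1, with 6.47% of all genes passing. Under this scaling the median Log2FC of all genes was -0.06, against 0.02 with TMM. In Ex vs. CC-Ex, 3 passed with DESeq2 (6.44% of all genes), 5 with limma-voom (9.61%) and 9 with the erythroid score (30.6%), and 0 with upper-quartile scaling (0.212%), the library number (0.387%), the fibroblast score (0.0184%) or only the 12 rats of the comparison (0.00922%). In the pooled CC effect, 13 passed with limma-voom (36.4%), 15 with the erythroid score (48.1%) and 6 with the fibroblast score (12.2%). With the library number 5 passed (23.2%), and Slc25a23 and Slc25a46 were not among them. The library numbers were uneven between the groups, with most CC-Ex libraries numbered below every Sed library. With single rats left out, the counts ranged from 2 to 7, from 0 to 3 and from 5 to 11, and stayed at 0 for training and the interaction.

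The replicate numbers were not taken to pair the rats, since the residuals of same-numbered rats did not all correlate by more than 0.1. The correlations lay between -0.50 and 0.36 in Sed vs. CC-Sed, where 5 of 6 were above 0, and between -0.42 and 0.15 in Ex vs. CC-Ex. With the replicate number as a block, 2, 0 and 9 members passed in the 3 comparisons, against 5.10%, 0.00922% and 25.5% of all genes.

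In CC-Sed vs. CC-Ex, where no member passed, the Log2FC of Slc25a30 (0.15) turned to -0.0024 with the slow-fibre score, to -0.0033 without CC-Sed replicate 1 and to -0.36 without CC-Ex replicate 4, the lowest value with a rat left out (highest 0.61). That of Slc25a33 (0.81) turned to -0.17 with the slow-fibre score, -0.72 with limma-voom, -0.21 with the fibroblast score and -0.94 without CC-Ex replicate 5, the lowest value with a rat left out (highest 1.04). The cause was not tested.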
